A study of Mus musculus with 4 samples.

Results

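Oxidative phosphorylation is carried out by 5 complexes of the inner mitochondrial membrane, and their subunits are encoded by 2 genomes. The genes described here were taken by symbol: *Nduf* genes of the a, b, c, s and v series for complex I, *Sdha* to *Sdhd* for complex II, *Uqcr* genes for complex III, *Cox4* to *Cox8* genes for complex IV, *Atp5* genes for complex V, and the protein-coding genes of mitochondrial DNA. *Ndufa4* and *Ndufa4l2* were counted with complex IV, and the pseudogene *Cox5b-ps* with no complex. This gave 101 of the 33696 genes counted, of which 88 are nuclear and 13 mitochondrial. Both parts were followed apart, by library and by cell class.

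The cells came from intraperitoneal B16-F1-OVA melanoma, a tumor line from C57Bl/6 mice that expresses ovalbumin, on day 14 after injection of 400000 cells. Hosts carried *Cxcl13*-cre with tdTomato, which reports current activity of the *Cxcl13* promoter, and the R26R-eGFP flox allele (B6;129-Gt(ROSA)26Sor tm2Sho/J), in which eGFP is turned on by Cre and then stays on. CD45 neg CD31 neg PDPN hi cells were sorted into tdTomato neg eGFP+, tdTomato+ eGFP neg, tdTomato+ eGFP+ and tdTomato neg eGFP neg populations, and each was sequenced as 1 library. The age of the mice and the number pooled for a library are not stated, and neither reporter gene is in the gene list. Values by library are given in this order, and the last 2 populations are called double-positive and double-negative.

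Electrons from NADH enter at complex I and those from succinate at complex II, pass through ubiquinol to complex III and by cytochrome c to complex IV, where oxygen is reduced. Complexes I, III and IV pump protons, and complex V, the ATP synthase, uses their return to make ATP. Mitochondrial DNA codes for core subunits of complexes I, III, IV and V and for none of complex II, so both genomes must be expressed for the chain to be built, and fibroblasts and mesothelial cells draw on it beside glycolysis.

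The libraries held 63310850, 52046896, 10071954 and 90259852 unique molecular identifiers (UMIs), and 6006, 4952, 920 and 10813 cells were kept, 22691 of 24489 barcodes. A kept cell had 500 to 6000 genes and at most 10% of its UMIs from mitochondrial genes, a limit that also truncates the mitochondrial levels given here. Median depth was 8399, 9154, 8670.5 and 5607 UMIs per cell. Levels are pooled counts of all cells in a class, scaled to 1000000 UMIs (CPM). They count molecules at the 3′ end and were not divided by length. Log2 ratios are between such sums, and a gene was called higher or lower beyond 0.25 where it reached 10 CPM in either group. Shares of all genes called were computed with these settings alone, so counts under alternatives have no such share beside them. With 1 library per population no test was possible, sort gate and library cannot be told apart, and the 95% intervals (exact Poisson for levels, exact Clopper-Pearson for shares) cover counting error only.

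Clustering, from which the members had been held out, gave 10 classes that were checked against marker lists. Of 11 mesothelial markers, 10, 11 and 11 stood above all other cells in non-cycling, cycling and *Krt14* *Slurp1* mesothelial-like cells (3390, 4482 and 281 cells), led by *Upk1b* at 399 CPM in the non-cycling class. Of 10 matrix fibroblast markers, 9 did so in both non-cycling and cycling matrix fibroblast-like cells (3351 and 1338 cells), led by *Col3a1*, and all 8 cycling markers did so in both cycling classes. The 7 markers of the hypoxic inflammatory list were above other cells in *Serpinb2* *Ereg* inflammatory-like cells (4312 cells), and the 8 *Pi16* fibroblast markers in a cluster called here by its leading genes *Inmt* and *Apod* (1854 cells), where they summed to 7110.4 CPM with *Ogn* highest. A cluster led by *Col6a6* and *Thsd4* (2459 cells) had 9 of the 11 mesothelial markers above other cells, 1569 CPM in sum with *Wt1* highest, and was kept apart from the mesothelial-like classes.

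Melanoma-like cells (623 cells), a class the PDPN hi gate should remove, had 7 of 7 melanoma markers above other cells, 13322 CPM in sum with *Dct* highest at 5493 CPM. Immune-like cells (601 cells), a class the CD45 neg gate should remove, had 8 of 8 immune markers above other cells and 4965 CPM. They also had 14270.4 CPM of the matrix list, beside 14161.8 in cycling mesothelial-like cells, and its source was not tested. Markers of further types, endothelial cells among them, which the CD31 neg gate should remove, were also read: summed over a list they reached at most 67.3 CPM for 5 endothelial genes, in the *Inmt* *Apod* cluster with *Kdr* highest, 15.2 CPM for 5 pericyte genes, with *Rgs5* highest, 12.1 CPM for 5 erythroid genes, with *Hbb-bs* highest, and 858 CPM for 3 epithelial genes, nearly all of it *Krt7* in *Krt14* *Slurp1* mesothelial-like cells. The other 8 classes are called CAF here. Median depth ran from 1744 UMIs in the *Inmt* *Apod* cluster to 17633 in melanoma-like cells. The libraries shared 57 barcodes, of which 49 were kept.

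Of the 88 nuclear members, 86 had at least 1 UMI in kept cells, 79 reached 10 CPM and 67 reached 100 CPM, and *Cox8c* and *Ndufb11b* had none. The median of the members was 412 CPM for complex V, with 17 of 17 genes at 10 CPM or more, and 409.9 CPM for complex IV, with 14 of 20. Complex III was at 360.5 CPM over 8 genes, complex I at 198 over 38 and complex II at 74.6 over 4. The most abundant were all subunits of complex IV and the ATP synthase: *Cox8a* with 1048 CPM, *Ndufa4*, a complex IV subunit first assigned to complex I, with 938, *Cox4i1*, a core-binding nuclear subunit, with 935 and *Atp5g2*, a gene for the proton-carrying c ring, with 785. Over CAF alone *Cox4i1* stood above *Ndufa4*, with 159294 against 141222 UMIs. *Ndufb4* and *Ndufb4b*, *Ndufb11* and *Ndufb11b*, and *Cox5b* and its pseudogene *Cox5b-ps* have similar sequences, so the sharing of reads between them makes each value uncertain.

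All 13 mitochondrial members were detected. Most abundant were *mt-Co3* of complex IV with 1642 CPM, *mt-Co2* of the same complex with 1521 and *mt-Cytb* of complex III with 1496, then *mt-Co1* of complex IV with 1477 and *mt-Atp6* of complex V with 1353. The complex I genes were lower, from 534 CPM for *mt-Nd1*, 496 for *mt-Nd4* and 286 for *mt-Nd2* to 95.1 for *mt-Nd5*, 58.2 for *mt-Nd3*, 42.7 for *mt-Nd4l* and 7.28 for *mt-Nd6*, the one member on the light strand. *mt-Atp8*, which overlaps *mt-Atp6*, had 10.3 CPM. Since *mt-Nd4l* likewise overlaps *mt-Nd4*, counts within these pairs are uncertain.

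The libraries stood apart, and the mitochondrial part set them apart most. Over CAF the 13 mitochondrial genes summed to 4949, 10937, 5269 and 9249 CPM in the 4 libraries, and the nuclear genes to 23167, 19542, 21499.8 and 26081 CPM. Mitochondrial transcripts were thus high in both eGFP neg libraries and low in both eGFP+ libraries, while nuclear ones were highest in the double-negative and lowest in the tdTomato+ eGFP neg library. No mitochondrial UMI at all was found in 689, 75, 84 and 136 kept cells, or 11.5%, 1.51%, 9.13% and 1.26%. *Malat1*, a nuclear RNA, was at 15196, 17772, 28167 and 16235 CPM in the same order, highest in the double-positive library. Cytosolic ribosomal genes were also highest in the double-negative library. Over it, the other libraries had log2 ratios of -0.08, -0.32 and -0.23 in the same order, beside -0.17, -0.42 and -0.28 for nuclear members. Sex marks were mixed in each library. Of kept cells with an *Xist* or a Y-linked UMI and not both, 43.6%, 65.5%, 63.4% and 56.7% had *Xist*. Over all libraries this share was 13.7% in the *Col6a6* *Thsd4* cluster and 77.3% in *Serpinb2* *Ereg* cells. Parts played by depth, *Malat1*, sex mix, library and sort gate in these differences were not tested.

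The order of libraries recurred across classes. In each of 9 classes with at least 50 cells in more than 1 library the nuclear sum was highest in double-negative cells, and in each of the 8 that the tdTomato+ eGFP neg library could enter it was lowest there. Cytosolic ribosomal genes had the same highest and lowest library in these classes. Their log2 ratio of tdTomato+ eGFP neg over double-negative cells was -0.40 in cycling mesothelial-like and -0.43 in *Serpinb2* *Ereg* cells. For nuclear members these were -0.42 and -0.29. The spread between libraries within a class ran from 1.10 to 1.44 times for the nuclear part and from 1.63 to 3.32 times for the mitochondrial part. Over the double-negative library, log2 ratios of the tdTomato neg eGFP+ library ran from -0.35 to -0.13 for the nuclear part and from -1.43 to 0.60 for the mitochondrial part, in which 8 classes were called lower and melanoma-like cells higher. Those of the tdTomato+ eGFP neg library ran from -0.53 to -0.29 and from -0.03 to 1.00, so nuclear members were beyond the threshold on the lower side in 8 of 8 classes and mitochondrial ones on the higher side in 5 of 8, with 7 of the 8 above 0. In the double-positive library both parts were below the double-negative one in 5 of 5 classes.

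In the nuclear part melanoma-like cells stood above the CAF classes, which also differed among themselves. Non-cycling mesothelial-like cells had 27348, 24127, 26663 and 29945 CPM in the 4 libraries, cycling ones 24395, 20848, 23256 and 27893, and non-cycling matrix fibroblast-like cells 20943, 18328, 20814 and 24902. *Serpinb2* *Ereg* cells had 20236, 18622, 19664 and 22711 CPM and the *Col6a6* *Thsd4* cluster 21459, 18395, 20038 and 23896. Non-cycling mesothelial-like cells were thus the highest CAF class in every library, and the *Inmt* *Apod* cluster the lowest in both libraries where it had 50 cells (18335 and 20204 CPM, tdTomato neg eGFP+ and double-negative). Within a library, CAF classes differed by 1.32 to 1.49 times in the nuclear part and by 1.44 to 2.54 times in the mitochondrial part. Melanoma-like cells reached 54423, 51036 and 64626 CPM in the tdTomato neg eGFP+, tdTomato+ eGFP neg and double-negative libraries, above every CAF class in each.

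For mitochondrial transcripts the order was another. Non-cycling mesothelial-like cells had 3555, 9547, 4333 and 8222 CPM, cycling ones 4620.1, 10423, 4742 and 8727, and non-cycling matrix fibroblast-like cells 3412, 11328, 3779 and 9195. Each class was low in the eGFP+ libraries and high in the eGFP neg ones. The *Col6a6* *Thsd4* cluster, with 7332, 13226, 7734 and 12814 CPM, was above these 3 in all 4 libraries, and the *Inmt* *Apod* cluster had 7691 and 12554 CPM in the tdTomato neg eGFP+ and double-negative libraries. With all libraries pooled, nuclear UMIs per mitochondrial UMI were 4.43 in non-cycling mesothelial-like, 3.44 in cycling matrix fibroblast-like, 2.25 in *Serpinb2* *Ereg* and 1.62 in *Inmt* *Apod* cells. The pooled balance thus leaned most to nuclear transcripts in the first. Within libraries the first 2 lay closer, at 7.69 and 7.24 in tdTomato neg eGFP+ cells and 3.64 and 3.50 in double-negative cells. Melanoma-like cells had 2.02, 1.43 and 3.62 in the tdTomato neg eGFP+, tdTomato+ eGFP neg and double-negative libraries, and 2.81 pooled. Non-cycling mesothelial-like cells had 7.69, 2.53 and 3.64 in those libraries.

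**Figure D1:**
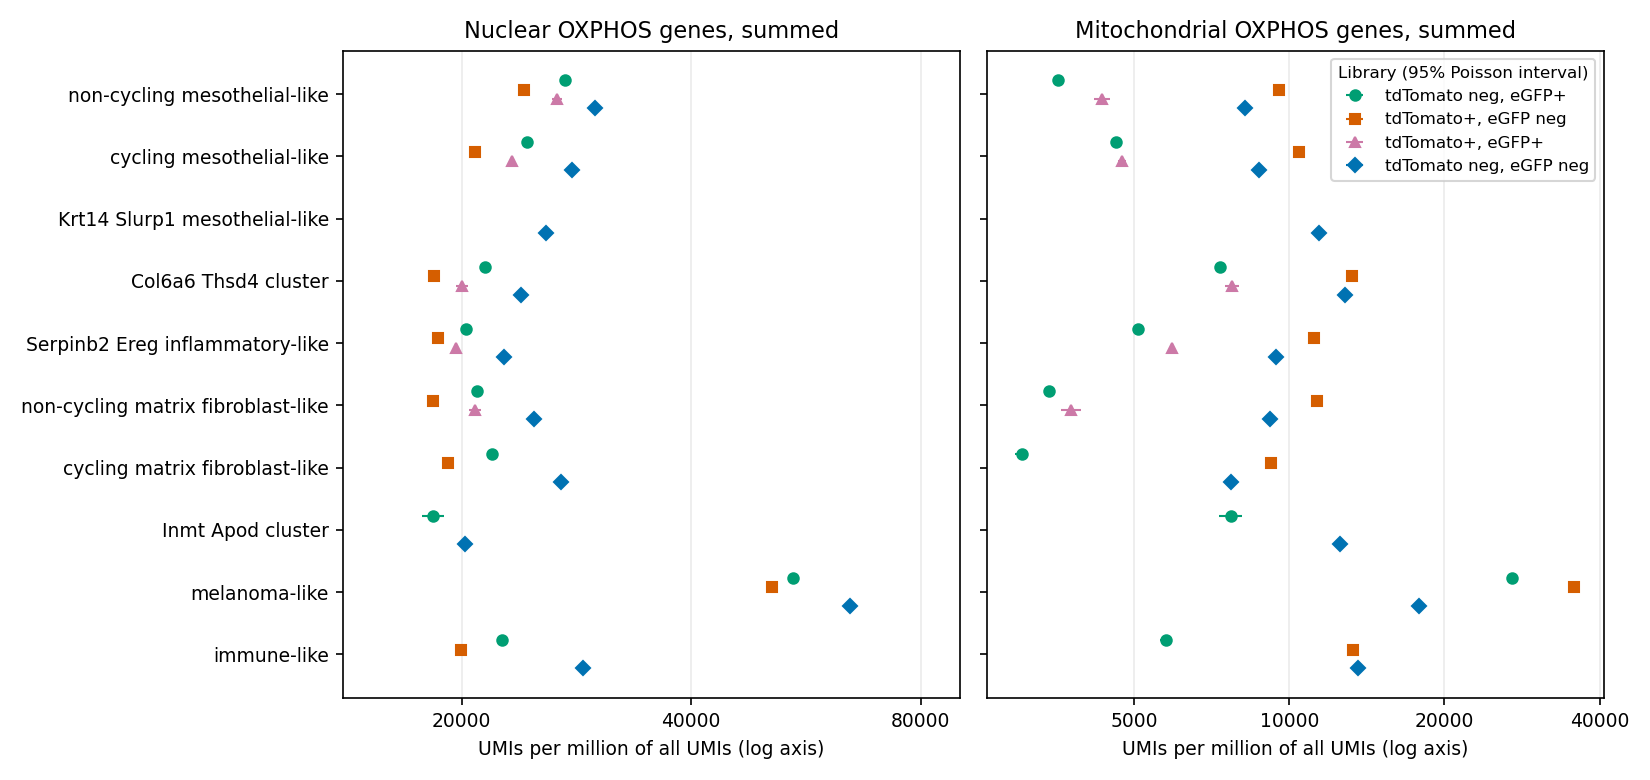
Summed level in CPM of the nuclear and of the mitochondrial members in each cell class, on log axes, with 1 point and its 95% Poisson interval for each library that had at least 50 cells in the class. Melanoma-like cells stand highest in both parts, and nuclear points spread less within a class than mitochondrial ones.

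Cells were grouped by their own mitochondrial share to see the nuclear part beside it. Over CAF the nuclear sum was 25116, 24995, 23913, 21274 and 16736 CPM in cells with under 0.1%, 0.1 to 0.3%, 0.3 to 1%, 1 to 3% and 3 to 10% of their UMIs from mitochondrial genes. Cells with the largest mitochondrial share thus had the lowest nuclear level. *Malat1* was 12949 CPM in the lowest bin and 36929 CPM in the highest. Between the same bins ribosomal genes went from 190743 to 126801 CPM and median depth from 7592.5 to 2806 UMIs. Double-negative cells had the highest nuclear sum of the 4 libraries in each bin, with 29443 CPM in the lowest bin and 20239.8 in the highest. With mitochondrial UMIs left out of the total, the sums over CAF were 25125, 25043, 24065, 21606 and 17558. Parts played by depth, *Malat1*, ribosomal genes, class and library in these differences between bins were not tested.

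**Figure D2:**
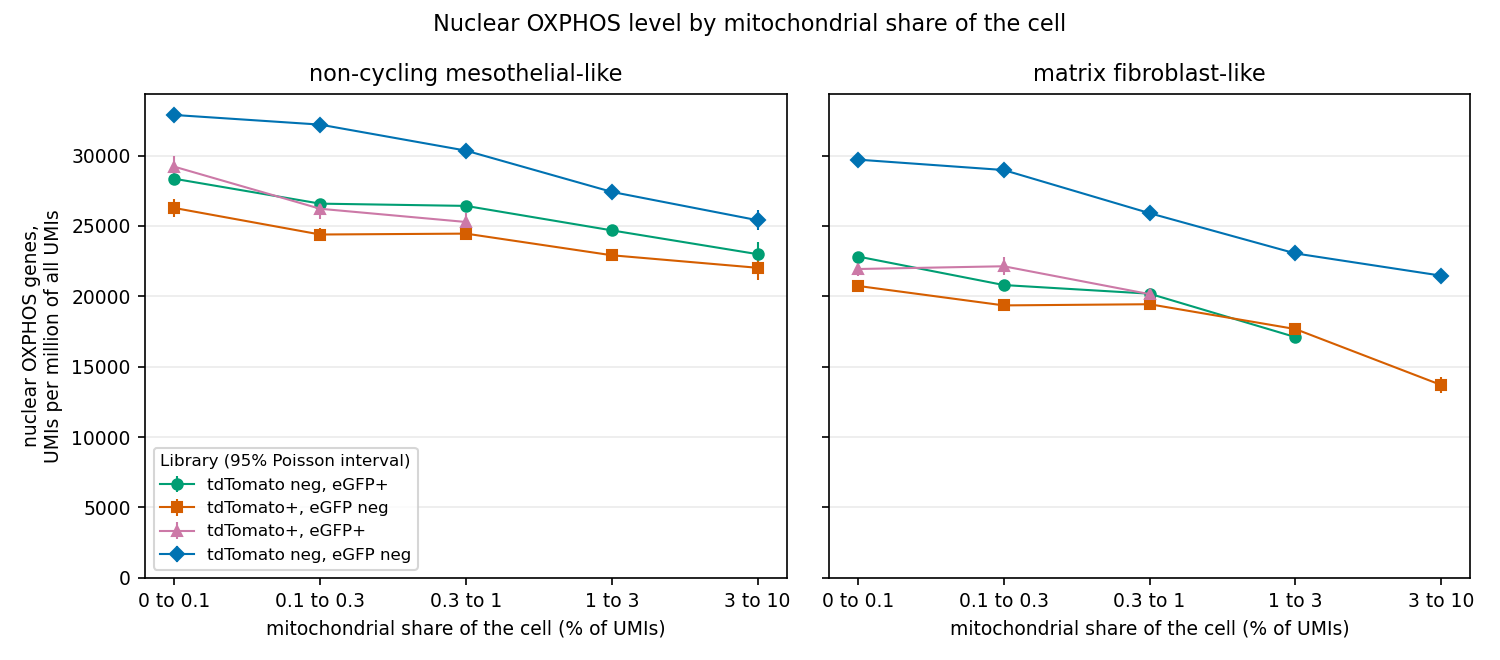
Nuclear level in CPM of non-cycling mesothelial-like and of matrix fibroblast-like cells, grouped by the percent of UMIs from mitochondrial genes, with a line for each library and 95% Poisson intervals, for bins with at least 20 cells. The double-negative line lies highest in each bin, and levels are lowest in the bin of the largest mitochondrial share.

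By complex, nuclear transcripts of complex I summed to 8294 CPM in non-cycling mesothelial-like, 7093 in non-cycling matrix fibroblast-like, 5774 in *Serpinb2* *Ereg* and 15943 in melanoma-like cells, all libraries pooled. Complex II, the succinate dehydrogenase of the citric acid cycle, was at 361, 320.0, 271 and 985 CPM, and complex III at 2878, 2403, 1922 and 6702. Melanoma-like cells were highest of these 4 classes in all 3 complexes. Complex IV reached 8360.1, 6777, 5937 and 21099 CPM and complex V 8185, 7028, 5817 and 16170.4. Melanoma-like cells were again highest, and in them complex IV stood above complexes I and V. The CAF classes draw on the libraries in different shares, so their order in these pooled values is not that within each library: in the tdTomato+ eGFP neg library complex IV was at 5499.5 CPM in *Serpinb2* *Ereg* and 5209 in non-cycling matrix fibroblast-like cells.

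Melanoma-like cells were set beside all CAF, a comparison added after the data had been seen, as B16 cells are the tumor cells themselves, here those that passed the PDPN hi gate. Nearly every member was higher in them, in both genomes. The nuclear sum was 60914 CPM against 23368 CPM, a log2 ratio of 1.38 (95% interval 1.38 to 1.39), and the mitochondrial sum 21679 against 8186 CPM, 1.41 (95% interval 1.40 to 1.41). Within the tdTomato neg eGFP+, tdTomato+ eGFP neg and double-negative libraries the nuclear ratio was 1.23, 1.38 and 1.31 and the mitochondrial 2.45, 1.70 and 0.95, higher in 3 of 3 for both. Among 80 nuclear members, 78 were higher, where 38.5% of all 8873 genes tested were, and 2 were lower, where 42.1% of all genes were. All 13 mitochondrial members were higher. The median log2 ratio was 1.22 for nuclear and 1.47 for mitochondrial members, beside -0.03 for all genes tested. Median depth was 17633 against 7257 UMIs, and *Malat1* was at 6901 against 16866 CPM. The part of *Malat1* was not tested.

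The largest ratios fell in complexes IV, II and V. *Cox7b*, a small complex IV subunit, was at 2096, 1743 and 2191 CPM in melanoma-like cells of these 3 libraries and at 359, 291 and 435 in CAF, and *Ndufa4* at 2996, 2687 and 4438 against 725, 543 and 945. Every melanoma-like value lay above every CAF value for both, with log2 ratios of 2.52 (2.49 to 2.54) and 2.36 (2.35 to 2.38). *Sdhb*, the iron-sulfur subunit of complex II, was at 595, 576 and 703 against 127, 108 and 151 CPM, log2 ratio 2.34. Its groups did not overlap either, and the catalytic *Sdha* and the membrane anchor *Sdhc* were among the smallest increases, 0.46 and 0.45, or 0.82 and 0.76 without the double-negative library. At 4000 to 12000 UMIs both calls ended, with *Sdha* at 0.05 and *Sdhc* at -0.15. In complex V, *Atp5mpl*, a small membrane subunit, and *Atp5o*, the stalk subunit OSCP, had 1178 against 242 CPM and 1239.5 against 293 CPM, log2 ratios 2.28 and 2.08. The smallest called increase in complex I was *Ndufa2*, 0.43, or 0.28 without the double-negative library.

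The 2 lower members are both alternative forms of complex IV subunits. *Ndufa4l2*, a paralog of *Ndufa4* known to be induced by hypoxia-inducible factor, was at 45.8, 10.5 and 52.1 CPM in melanoma-like cells and at 364, 335 and 272 in CAF. *Cox6b2*, known as the testis form of *Cox6b*, had 2.40 against 12.6 CPM. Both were low in melanoma-like cells, with log2 ratios of -2.84 and -2.40, the latter -4.24 without the double-negative library. Among mitochondrial members the ratio was highest for *mt-Atp8* (1.84), *mt-Atp6* (1.80) and *mt-Cytb* (1.75) and lowest for *mt-Nd3* (0.63). Leaving out the tdTomato neg eGFP+ library took *mt-Co1* from 0.96 to 0.63 and *mt-Nd3* from 0.63 to 0.34. Leaving out the double-negative library took *mt-Co1* to 1.60, *mt-Nd3* to 1.16 and *mt-Co3* from 0.99 to 1.57.

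Mesothelial-like and matrix fibroblast-like cells, with cycling and non-cycling cells joined, were the largest CAF groups kept (7872 and 4689 cells). The comparison asks how they differ in respiratory transcripts. They differed little in the nuclear sum, with the larger differences in single alternative subunits. The nuclear sum was 25608 against 24122 CPM, log2 ratio 0.09 (95% interval 0.08 to 0.09), and 0.25, 0.19, 0.18 and 0.16 within the libraries, all above 0. Without the double-negative library the pooled ratio was 0.26, past the threshold. The mitochondrial sum was 7095 against 8239 CPM, -0.22 (95% interval -0.22 to -0.21), but 0.40, -0.02, 0.41 and -0.02 within libraries. No library thus showed the pooled difference: both eGFP neg libraries were near 0 and both eGFP+ libraries went the other way. The tdTomato neg eGFP+ library gave 2926 of the 7872 mesothelial-like and 415 of the 4689 matrix fibroblast-like cells. The pooled ratio was -0.33 without the tdTomato+ eGFP neg and 0.01 without the tdTomato neg eGFP+ library, 0.04 in the 2 eGFP neg libraries alone, -0.30 at 4000 to 12000 UMIs and 0.10 with libraries weighted equally. Depth was 7900 against 7693 UMIs per cell in the median and *Malat1* 12318 against 14287 CPM, and the part of *Malat1* was not tested.

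Of the nuclear members, 17 of 80 were called higher in mesothelial-like cells, with 32.3% of all 8461 genes tested called so, and 1 lower, with 28.8% of all genes. The count of higher ones was 39 without the double-negative library, with no share of all genes computed there. Medians were 0.09 for nuclear members, -0.32 for mitochondrial ones and 0.04 for all genes. Of 12 mitochondrial members 7 were lower and 0 higher. The number lower was 2 without the tdTomato neg eGFP+ library and 4 without the double-negative one, and *mt-Co1* went from -0.33 to -0.10 and -0.18. The number was 10 without the tdTomato+ eGFP neg library, 2 in the eGFP neg libraries and 1 with libraries weighted equally, where *mt-Co1*, *mt-Nd3* and *mt-Nd4* were at 0.06, 0.01 and 0.00.

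In complex I, *Ndufs7*, an iron-sulfur subunit next to the quinone site, had 239.5, 204, 213 and 258 CPM in mesothelial-like and 150.4, 141, 158 and 179 CPM in matrix fibroblast-like cells. It was higher in the former in every library, log2 ratio 0.48. In complex II, *Sdhd*, a membrane anchor, was again higher in each library, 0.46 (88.4 against 64.4 CPM). The c-ring gene *Atp5g2* of complex V had a ratio of 0.42 (889 against 663 CPM). Complex IV held both extremes. *Cox4i2*, the lung form of *Cox4* that responds to oxygen, was at 2.40, 4.19, 1.53 and 2.36 CPM in mesothelial-like and 30.7, 15.3, 30.1 and 14.3 CPM in matrix fibroblast-like cells, and *Cox6b2* at 18.5, 8.44, 9.78 and 27.6 against 4.22, 4.92, 0.941 and 7.92. *Cox4i2* was lower and *Cox6b2* higher in mesothelial-like cells of every library, -2.60 (-2.84 to -2.38) and 1.47 (1.29 to 1.66). *Ndufa4l2* was also higher, 0.67 (283 against 179 CPM). The smallest ratios beside *Cox4i2* stayed within the threshold, from -0.23 for *Atp5e* over -0.21 for *Ndufa1* and -0.20 for *Atp5mpl* to -0.19 for *Cox6c*.

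Cycling and non-cycling mesothelial-like cells were compared to see respiratory transcripts beside cell division. In cycling cells 21 of 79 nuclear members were lower and 6 of 11 mitochondrial ones higher, and neither sum passed the threshold. The nuclear sum was 24646 against 28084 CPM, log2 ratio -0.19 (95% interval -0.19 to -0.18), short of the threshold, and below 0 in 4 of 4 libraries at -0.16, -0.21, -0.20 and -0.10. The mitochondrial ratio was 0.22 (95% interval 0.21 to 0.23), 0.38, 0.13, 0.13 and 0.09 within libraries, and 0.47 without the double-negative library. No nuclear member of 79 was higher (0), where 43.3% of all 8142 genes were, and 21 were lower, where 17.9% of all genes were. In cells with 4000 to 12000 UMIs, 7 were lower and the sums were at -0.09 and 0.33, the latter past the threshold. For those cells no share of all genes was computed. Medians were -0.18, 0.30 and 0.16 for nuclear members, mitochondrial members and all genes. *Malat1* was higher in cycling cells by a log2 ratio of 1.07 and *Neat1*, another nuclear RNA, by 2.14, with median depths of 10952 and 5269 UMIs. The part of *Malat1* and *Neat1* was not tested.

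The lower members were spread over complexes I (10 of 36), III (3 of 8), IV (4 of 14) and V (4 of 17), with 0 of 4 in complex II. The accessory complex I subunits *Ndufv3*, *Ndufa13* and *Ndufa3* had log2 ratios of -0.51, -0.47 and -0.44, the last -0.11 at 4000 to 12000 UMIs. *Ndufv3* was at 246, 203, 273 and 301 CPM in cycling and 344, 322, 389.8 and 389.9 in non-cycling cells, lower in cycling cells of every library. *Cox6b2* was at 12.9, 7.36, 8.57 and 20.7 against 31.9, 14.1, 14.2 and 41.0 CPM, lower in cycling cells of each library, -1.25. *Ndufa4l2* was at -0.57, but at 0.10 in cells with *Xist* and no Y-linked UMI. The nuclear member with the highest ratio, *Atp5b* of the catalytic head, stayed within the threshold at 0.22.

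Of 11 mitochondrial members 6 were higher in cycling cells, where 43.3% of all genes were. They were *mt-Nd1* (0.44), *mt-Nd2* (0.36) and *mt-Nd5* (0.33) of complex I, *mt-Co2* (0.32) and *mt-Co3* (0.30) of complex IV, and *mt-Atp6* (0.33). *mt-Cytb* was at 0.06 and *mt-Co1* at 0.02. The count was 11 without the double-negative, 3 without the tdTomato neg eGFP+ and 1 without the tdTomato+ eGFP neg library, so it rested on single libraries, and it was 0 in cells with Y-linked UMIs and no *Xist*. Without the double-negative library *mt-Nd2*, *mt-Nd5*, *mt-Co2*, *mt-Co3* and *mt-Atp6* were at 0.56, 0.67, 0.56, 0.51 and 0.54, and *mt-Cytb* and *mt-Co1* at 0.33 and 0.29. Without the tdTomato+ eGFP neg library the same first 5 were at 0.25, 0.24, 0.22, 0.16 and 0.21, and without the tdTomato neg eGFP+ library *mt-Nd5*, *mt-Co2* and *mt-Co3* were at 0.22, 0.23 and 0.24.

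Among matrix fibroblast-like cells, in a comparison added later, the nuclear sum differed by less than the threshold between cycling and non-cycling cells, and 8 of 12 mitochondrial members were lower in cycling ones. The nuclear log2 ratio of cycling over non-cycling cells was 0.08 (95% interval 0.08 to 0.09), from 24994 against 23625 CPM, and the mitochondrial one -0.27 (95% interval -0.29 to -0.26), from 7268 against 8794. Of 79 nuclear members 6 were higher, with 19.7% of all 8194 genes called higher, and 1 lower (3 without the double-negative library), with 20.8% of all genes called lower. No mitochondrial member was higher (0). In cells with 4000 to 12000 UMIs, 29 nuclear members were higher and 12 mitochondrial ones lower, and the sums were at 0.21 and -0.59. No share of all genes was computed for these cells. With a mitochondrial limit of 5% the mitochondrial sum was at -0.24, short of the threshold. Medians were 0.07 for nuclear members, -0.31 for mitochondrial ones and -0.02 for all genes. The higher ones named by the rule were *Atp5g2* (0.41), *Uqcrfs1*, the Rieske iron-sulfur protein of complex III (0.40), *Cox7a2* (0.40), *Cox5a* (0.36) and *Ndufa5* (0.34), and *Cox4i2* was lower (-0.41). *Atp5g2* was at 724, 592 and 845 CPM in cycling and 537, 447 and 624 CPM in non-cycling cells, for the tdTomato neg eGFP+, tdTomato+ eGFP neg and double-negative libraries, and higher in cycling cells of all 3. *Ndufv3* was at -0.24, or -0.30 without the double-negative library, *Ndufa13* at -0.19, *Ndufb2* at -0.17 and *Atp5e* at -0.11. *mt-Nd1* went from -0.25 to -0.27 and *mt-Atp6* from -0.24 to -0.26 without the tdTomato+ eGFP neg library. Without the double-negative library *mt-Atp8* went from -0.19 to -0.87. *Malat1* was at -0.26 and depth at 10392 against 6807 UMIs, and the part of *Malat1* was not tested.

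The *Inmt* *Apod* cluster, which carries *Pi16* fibroblast markers, was compared with matrix fibroblast-like cells to set a quiescent-type fibroblast beside matrix-producing ones. In the cluster 47 of 79 nuclear members were lower and all 13 mitochondrial ones higher. The nuclear sum was 20004 against 24122 CPM, log2 ratio -0.27 (95% interval -0.28 to -0.26), and the mitochondrial sum 12374 against 8239, 0.59 (95% interval 0.57 to 0.60). Within the tdTomato neg eGFP+ and double-negative libraries the ratios were -0.22 and -0.34 for nuclear and 1.24 and 0.53 for mitochondrial members. Without the double-negative library, which gave 1745 of the 1854 cells, the nuclear ratio was -0.19 and short of the threshold, as it was at -0.18 when mitochondrial and ribosomal UMIs were left out of the total. It was larger in cells of like depth, -0.56 with 68 members lower at 4000 to 12000 UMIs and -0.51 at 1000 to 3000 UMIs, and in cells with *Xist* alone the ratios were -0.35 for nuclear and 0.37 for mitochondrial members. Shares of all genes were not computed at these depths. Of 79 nuclear members 5 were higher and 47 lower (31 without the double-negative library), where 40.4% and 29.5% of all 8819 genes were. Medians were -0.30 for nuclear members, 0.76 for mitochondrial ones and 0.10 for all genes. Cells of the cluster were shallow, with a median of 1744 UMIs, and 98.1% of its sex-marked cells had *Xist* alone, against 53.4% of matrix fibroblast-like ones. The part of library was not tested.

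Lower members came from every complex, 13 of 17 in complex V, 10 of 14 in complex IV, 5 of 8 in complex III, 3 of 4 in complex II and 16 of 36 in complex I. *Ndufa4l2* was at 25.9 and 27.9 CPM in the cluster and 201 and 188 in matrix fibroblast-like cells of those 2 libraries, and *Cox6a1*, a nuclear subunit of complex IV, at 228 and 193 against 370.1 and 368. Both were lower in the cluster in each, -2.62 and -0.91 pooled. *Uqcrq* of complex III (-0.75) and *Cox5a* (-0.71) were lower too, as was *Cox4i2* at -4.46, or -1.74 without the double-negative library. *Cox7a2l* was the highest nuclear member with 239 against 140.0 CPM, 0.77. The other 4 higher ones were lost or turned without the double-negative library: *Ndufs7* from 0.36 to -0.14, *Uqcrh* from 0.34 to 0.14, *Sdha* from 0.30 to -0.06 and *Ndufs1*, the largest iron-sulfur subunit of complex I, from 0.29 to 0.06. At 4000 to 12000 UMIs *Ndufs7*, *Uqcrh* and *Ndufs1* were at -0.34, 0.02 and 0.12.

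Among mitochondrial members of the cluster the complex I genes had a summed ratio of 0.83, *mt-Cytb* 0.47, the complex IV genes 0.57 and the complex V genes 0.47. Complex I thus stood highest as a sum. Single ratios ran from 0.43 for *mt-Co2* to 1.24 for *mt-Nd4l*, and *mt-Nd2* was at 1.06. *mt-Atp8* of complex V, at 0.95, was above *mt-Nd3* of complex I, at 0.76. Without the double-negative library *mt-Atp8* went from 0.95 to -0.50, *mt-Nd3* from 0.76 to 0.43 and *mt-Cytb* to 0.22. In cells with *Xist* alone *mt-Co2* and *mt-Cytb* were at 0.23 and 0.17, short of the threshold.

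*Serpinb2* *Ereg* inflammatory-like cells, which carry hypoxia markers, were compared with matrix fibroblast-like cells after the data had been seen. Pooled nuclear members were lower, but within libraries the sums hardly differed. The nuclear sum was 19726 against 24122 CPM, log2 ratio -0.29 (95% interval -0.29 to -0.29), while within libraries it was -0.07, 0.00, -0.11 and -0.17, and -0.05 without the double-negative library. The mitochondrial ratio was 0.09 (95% interval 0.08 to 0.09), 0.64, 0.10, 0.76 and 0.12 within libraries, 0.31 without the double-negative and -0.31 without the tdTomato+ eGFP neg library. 1 nuclear member of 79 was higher, against 21.4% of all 8271 genes, and 44 lower, against 34.0%. Without the double-negative library these were 3 and 14, with no share of all genes computed there. With libraries weighted equally the nuclear ratio was -0.10 with 21 members lower, and the mitochondrial one 0.29 with 6 higher. The nuclear ratio was -0.23 in cells with *Xist* alone, and the mitochondrial one 0.33 as a mean over cells, 0.27 in the eGFP neg libraries and -0.08 in cells with Y-linked UMIs alone. Medians were -0.27 for nuclear members, -0.02 for mitochondrial ones and -0.09 for all genes. *Malat1* was 21968 against 14287 CPM and median depth 9265 against 7693 UMIs. Of sex-marked cells 77.3% had *Xist* alone, against 53.4% of matrix fibroblast-like ones. The parts of *Malat1* and sex mix were not tested.

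The higher member was *Ndufa4l2*, at 651, 461, 560.0 and 721 CPM in *Serpinb2* *Ereg* and 201, 118, 149.6 and 188 CPM in matrix fibroblast-like cells. It was higher in the former in every library, log2 ratio 1.65 (1.61 to 1.68). Its paralog *Ndufa4* was lower in every library, at 503, 459, 490.2 and 634 against 635, 603, 652 and 943 CPM, -0.78 pooled, and -0.38 without the double-negative library. In complex I, *Ndufa5* went from -0.77 to -0.35 without it, *Ndufb8* from -0.66 to -0.36, *Ndufa3* from -0.68 to 0.01 and *Ndufv3* from 0.13 to 0.68. *Atp5k*, a small ATP synthase subunit, went from -0.66 to -0.12. Of 12 mitochondrial members 1 was higher and 2 lower, where 21.4% and 34.0% of all genes were. The higher one was *mt-Co3* at 0.37 (-0.06 without the tdTomato+ eGFP neg library). The lower ones were *mt-Nd4l* at -0.87 and *mt-Atp8* at -0.36, which became 0.06 and 0.69 without the double-negative library. The counts of higher and lower mitochondrial members were 3 and 1 without the tdTomato neg eGFP+, 0 and 9 without the tdTomato+ eGFP neg and 7 and 0 without the double-negative library, and *mt-Atp8* was at -0.24 and -0.71 without the first and the second, and at 0.45 with libraries weighted equally. After *Ndufa4l2* and *Ndufv3*, the highest nuclear members tested were *Sdhc*, *Atp5d* and *Cox7a2l* at 0.04, 0.03 and 0.02.

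**Figure D3:**
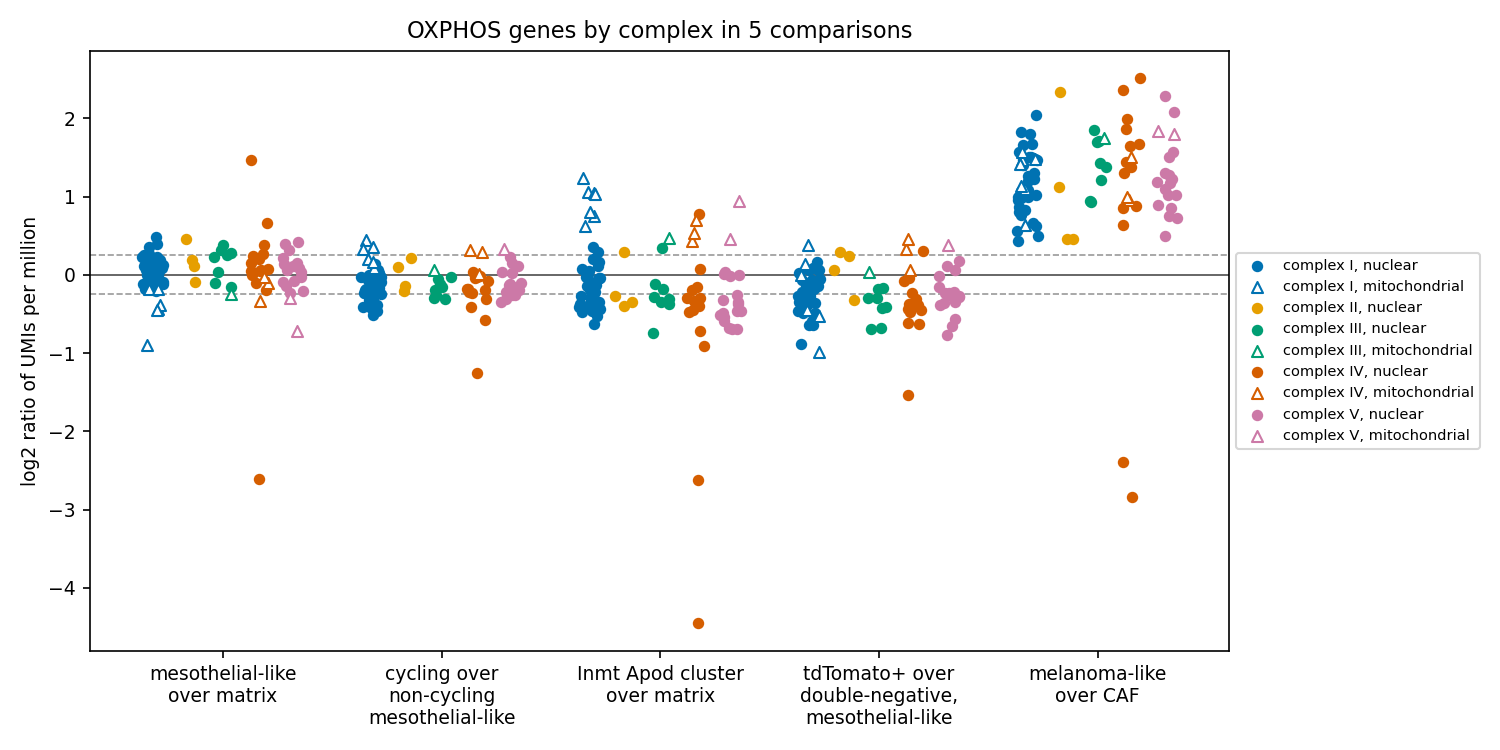
Log2 ratio of each member with at least 10 CPM in either group, by complex and in 5 comparisons, with filled circles for nuclear and open triangles for mitochondrial genes and dashed lines at the thresholds. Nearly all points lie above the upper line in melanoma-like over CAF, most mitochondrial genes lie above the nuclear ones in the Inmt Apod cluster, and the farthest nuclear points are complex IV genes.

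Within non-cycling mesothelial-like cells, populations with and without current *Cxcl13* promoter activity were compared, tdTomato+ eGFP neg over double-negative. In the tdTomato+ cells 43 of 79 nuclear members were lower, and mitochondrial ones were mixed. The nuclear sum was 24127 against 29945 CPM, log2 ratio -0.31 (95% interval -0.32 to -0.30), and the mitochondrial sum 9547 against 8222 CPM, 0.22 (95% interval 0.19 to 0.24). Among 79 nuclear members 2 were higher, against 30.9% of all 7655 genes, and 43 lower, against 22.7%, with medians of -0.28 for nuclear members, 0.07 for mitochondrial ones and 0.05 for all genes. *Malat1* was lower as well, by a log2 ratio of -1.33, and the cytosolic ribosomal genes summed to a ratio of -0.26. Depth was 5716 against 4767 UMIs. Each group was 1 library, and the part of *Malat1* was not tested.

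Complexes III (6 of 8 lower) and IV (10 of 14) had the largest shares of lower members, then complexes V (9 of 17) and I (17 of 36). *Uqcrq* and *Uqcrb*, small complex III subunits at the quinone and cytochrome *b* side, were at 338 against 547 CPM and 442 against 705 CPM, *Atp5md* at 266 against 452 CPM, *Ndufa5* at 156 against 288 CPM and *Cox6b2* at 14.1 against 41.0 CPM. Each was lower in tdTomato+ eGFP neg cells, with log2 ratios of -0.69, -0.67, -0.77, -0.88 and -1.54. The 2 higher ones were *Cox7a2l* (170.1 against 138 CPM, 0.30) and *Sdhd* (85.6 against 70.0 CPM, 0.29). With mitochondrial and ribosomal UMIs left out of the total they were at 0.24 and 0.23 and no nuclear member was higher (0), while 5 were in cells with Y-linked UMIs and no *Xist*. Of 11 mitochondrial members 4 were higher and 3 lower, where 30.9% and 22.7% of all genes were. The former were *mt-Co3* (0.46), *mt-Nd2* (0.39), *mt-Atp6* (0.38) and *mt-Co2* (0.33), and the latter *mt-Nd4l* (-0.98), *mt-Nd5* (-0.53) and *mt-Nd3* (-0.45). Only 1 was higher with a mitochondrial limit of 5% (sum 0.11) and 1 at 4000 to 12000 UMIs (sum 0.02), while in cells with Y-linked UMIs and no *Xist* 6 were higher and 0 lower (sum 0.56). *Sdha*, *Atp5a1* and *Ndufv1* were within the threshold at 0.25, 0.18 and 0.16.

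The same class was also compared between tdTomato neg eGFP+ and double-negative cells, which share the latter library with the comparison above and were added later. Here the mitochondrial part differed most. Nuclear members summed to 27348 against 29945 CPM, log2 ratio -0.13 (95% interval -0.14 to -0.12), and the mitochondrial sum 3555 against 8222 CPM, -1.21 (95% interval -1.23 to -1.19). Of 79 nuclear members 5 were higher (23.2% of all 7491 genes were) and 15 lower (9.30% of all genes were), and 11 of 11 mitochondrial ones were lower. Among cells with at least 0.3% mitochondrial UMIs 29 nuclear members were lower, and 2 were higher when mitochondrial and ribosomal UMIs were left out of the total. Medians were -0.10, -1.31 and 0.08 for nuclear members, mitochondrial members and all genes. *Malat1* was lower by -1.07 on the log2 scale and depth was 5790 against 4767 UMIs, and the part of *Malat1* was not tested. The nuclear members with the smallest ratios were *Atp5md* (-0.53), *Ndufa3* (-0.43), *Atp5mpl* (-0.42), *Atp5k* (-0.41) and *Ndufc1* (-0.41). Higher were *Sdhd* (0.33), *Atp5a1* of the catalytic head (0.29), *Sdha* (0.27, but -0.12 in cells with *Xist* alone), *Ndufb7* (0.26) and *Ndufv1*, the NADH-binding subunit (0.25). Mitochondrial ratios ran from -2.13 for *mt-Nd4l* to -0.98 for *mt-Nd2* and -0.98 for *mt-Co3*.

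Alternative subunits took different shares of their pair by class. *Ndufa4l2* gave 52.9% (95% interval 52.4 to 53.3) of the UMIs of *Ndufa4l2* and *Ndufa4* in *Serpinb2* *Ereg* cells, 31.5% in the *Col6a6* *Thsd4* cluster, 25.6% in non-cycling mesothelial-like and 17.9% in non-cycling matrix fibroblast-like cells. In the *Inmt* *Apod* cluster it gave 4.52% and in melanoma-like cells 1.13%. The inflammatory-like cells were thus the one class in which the hypoxia-induced form made up most of the pair. *Cox4i2* stayed a minor form beside *Cox4i1*, with at most 2.28% in non-cycling matrix fibroblast-like cells and 0.156% in non-cycling mesothelial-like ones. *Cox6b2* gave 7.24% beside *Cox6b1* in *Krt14* *Slurp1* and 4.59% in non-cycling mesothelial-like cells, the highest shares, and 0.248% in melanoma-like cells. Cycling mesothelial-like cells had 2.44%, within the interval of the *Inmt* *Apod* cluster (2.01%, 1.38 to 2.82). These shares are pooled over libraries, and 259 of the 281 *Krt14* *Slurp1* cells came from the double-negative library.

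Other alternative forms were at low levels. The muscle forms *Cox6a2*, *Cox7a1* and *Cox8b* were at 0.452, 3.52 and 0.452 CPM over kept cells, beside 349.8 for *Cox6a1*, 529.8 for *Cox7a2* and 1048 for *Cox8a*, so the common forms prevailed. Of the 91 UMIs of *Cox8b* 85 were in melanoma-like cells, 0.290% of the pair beside 0.00340% in CAF, and *Cox6a2* gave 1.70% in immune-like cells beside 0.0888% in CAF. *Cox7b2*, a testis form, was at 0.0497 CPM beside 470.1 for *Cox7b*, and *Cox6c*, which has no other form in the list, at 654. The 3 c-ring genes code for the same mature protein, and *Atp5g1*, *Atp5g2* and *Atp5g3* were at 663, 785 and 316 CPM. *Atpif1*, which is outside the symbol rule and inhibits ATP hydrolysis by the synthase, was at 423 CPM in non-cycling mesothelial-like, 414 in non-cycling matrix fibroblast-like, 296 in *Serpinb2* *Ereg* and 953 CPM in melanoma-like cells, highest in the last. Of complex II, *Sdha*, *Sdhb*, *Sdhc* and *Sdhd* were at 46.6, 162, 69.7 and 79.5 CPM.

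**Figure D4:**
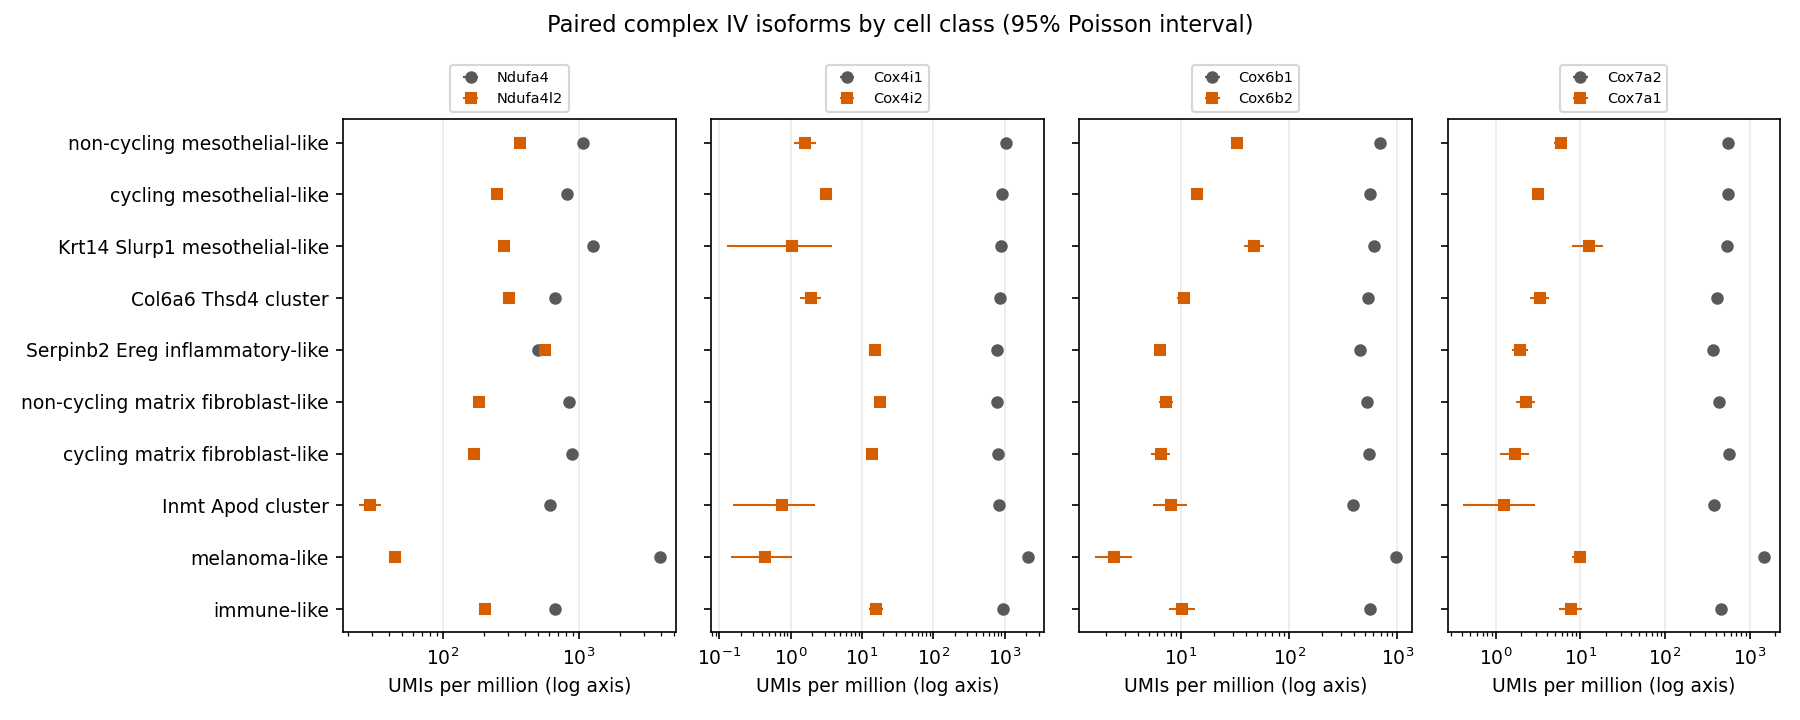
Level in CPM (log axis, 95% Poisson intervals) of an alternative complex IV subunit (square) and its common form (circle) in each cell class, all libraries pooled. Ndufa4l2 meets Ndufa4 in Serpinb2 Ereg cells, while Cox4i2, Cox6b2 and Cox7a1 stay below their common forms in all 10 classes.

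The make-up of the mitochondrial pool also differed between classes. In melanoma-like cells *mt-Atp6* gave 18.9%, *mt-Cytb* 20.4% and *mt-Co1* 12.4% of the 13 genes' UMIs, against 14.4%, 16.1% and 17.0% in CAF. The first 2 took larger shares in melanoma-like cells and *mt-Co1* a smaller one, also within each of the 3 libraries with at least 50 such cells. In the *Inmt* *Apod* cluster *mt-Nd2* gave 5.25% and 4.13% in the tdTomato neg eGFP+ and double-negative libraries, beside 3.27% and 3.00% in CAF, and *mt-Nd4l* 0.404% and 1.06%, beside 0.286% and 0.671%.

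Promoters were read because most nuclear members moved together in melanoma-like cells. RefSeq sequences (GRCm38.p6) from 250 bases before to 50 after the start were matched for 70 of 88 nuclear members, with 75 promoters among 32851 of all genes. Letters were searched on both strands. The ETS motif bound by GABP, CCGGAAG, was in 22.7% of member and 8.86% of all promoters, the NRF1 motif GCGCATGC in 13.3% and 2.71%, and the YY1 motif AAGATGGC in 13.3% and 2.75%. These 3 were more frequent in members than in all promoters, as was the estrogen-related receptor motif AAGGTCA, with 10.7% and 4.72%. The hypoxia-response core ACGTG was in 25.3% and 19.6%, and the CCAAT box in 41.3% and 37.4%. Such matches are letters in a window and not shown to be bound. Shown 5′ to 3′ on the gene's strand, with matches in capitals, are the promoters of the 3 genes with the largest ratios in melanoma-like cells that had an entry, and of *Cox6b2*, which was lower there: *Cox7b* (chrX:106015450-106015749, + strand) with 2 CCAAT boxes, *Ndufa4* (chr6:11907401-11907700, - strand) with no match, *Sdhb* (chr4:140961021-140961320, + strand) with an ETS, an NRF1 and a CCAAT match, and *Cox6b2* (chr7:4753045-4753344, - strand) with 3 CCAAT boxes.
Cox7b: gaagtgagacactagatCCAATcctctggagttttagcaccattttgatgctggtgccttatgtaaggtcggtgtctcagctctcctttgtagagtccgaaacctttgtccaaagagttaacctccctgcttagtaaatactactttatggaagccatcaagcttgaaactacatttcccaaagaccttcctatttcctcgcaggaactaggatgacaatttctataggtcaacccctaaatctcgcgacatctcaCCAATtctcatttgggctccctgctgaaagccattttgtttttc
Ndufa4: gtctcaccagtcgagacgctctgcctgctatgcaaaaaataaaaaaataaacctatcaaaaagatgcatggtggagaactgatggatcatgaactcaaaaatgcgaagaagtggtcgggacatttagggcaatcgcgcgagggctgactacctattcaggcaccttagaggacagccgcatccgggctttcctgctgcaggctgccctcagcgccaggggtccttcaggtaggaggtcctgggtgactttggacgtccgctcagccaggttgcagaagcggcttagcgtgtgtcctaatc
Sdhb: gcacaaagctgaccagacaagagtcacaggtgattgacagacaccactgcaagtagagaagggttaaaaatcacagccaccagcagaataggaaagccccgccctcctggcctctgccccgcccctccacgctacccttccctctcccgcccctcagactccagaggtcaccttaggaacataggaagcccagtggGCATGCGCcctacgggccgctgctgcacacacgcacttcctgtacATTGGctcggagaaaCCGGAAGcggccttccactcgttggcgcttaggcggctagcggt
Cox6b2: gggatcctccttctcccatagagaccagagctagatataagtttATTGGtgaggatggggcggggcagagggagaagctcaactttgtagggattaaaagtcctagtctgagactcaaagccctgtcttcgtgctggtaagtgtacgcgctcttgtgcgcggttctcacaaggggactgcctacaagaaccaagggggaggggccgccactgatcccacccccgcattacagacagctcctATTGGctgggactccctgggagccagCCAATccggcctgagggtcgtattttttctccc

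Nuclear members are short. A length was found for 86 of 88, with a median of 849.5 bases, against 2720 over all genes, and 52 were under 1000 bases. In tdTomato+ eGFP neg over double-negative non-cycling mesothelial-like cells 30 of 45 members under 1000 bases were lower and 12 of 33 longer ones, and of all genes 211 of 509 and 1477 of 7027. Cycling over non-cycling mesothelial-like cells gave 15 of 45 and 5 of 33 members, with 41.6% and 16.1% of all genes. In both, short genes of any kind were lower more often than long ones, as they were for tdTomato neg eGFP+ over double-negative cells, with 12 of 45 and 2 of 33 members and 22.9% and 8.06% of all genes, and for *Serpinb2* *Ereg* over matrix fibroblast-like cells, with 28 of 45 and 15 of 33 members and 47.3% and 33.1%. For the *Inmt* *Apod* cluster it was 28 of 45 and 19 of 33 members and 36.8% and 28.8%. Short genes were lower less often than long ones in 3 comparisons, with 16.4% and 29.3% of all genes in mesothelial-like over matrix fibroblast-like cells, 13.1% and 20.9% in cycling over non-cycling matrix fibroblast-like cells and 21.4% and 43.5% in melanoma-like cells over CAF. There 44 of 46 short and 33 of 33 longer members were higher, and 61.4% and 36.6% of all genes. The part of transcript length in the members' ratios was not tested.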

How the data were processed

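The data were 10x Genomics Chromium Next GEM 3′ v3.1 libraries of 4 populations sorted on a BD Influx. The authors deposited raw UMI counts per gene and barcode, and whole numbers were checked. File headers name Cell Ranger 8.0.0, while the submitters' notes name Cell Ranger 10.0.0, STAR, Seurat 5.0 and GRCm39. Sums and ratios were computed in Python 3.11.15 (pandas 2.3.3, numpy 2.4.6, scipy 1.17.1). Clusters of kept cells came from Seurat 5.3.0 under R 4.3.3 (genes in at least 3 cells, 2000 variable genes, 25 of 50 components, 20 neighbours, resolution 0.5, seed 0). The members, other mitochondrial, ribosomal and listed pathway genes, 398 in all and 38 of them among the first 2000 variable genes, were barred from clustering. Classes were named from marker lists, whose genes are not results, and the clusters called by *Inmt* *Apod* and *Col6a6* *Thsd4* by leading genes. Scrublet (scanpy 1.11.5) called 0, 0, 3 and 0 doublets, which were kept.

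The members and lists were chosen with earlier results of these data known. Comparisons were 4 planned ones and 4 added after the data had been seen (melanoma-like, *Serpinb2* *Ereg*, cycling matrix fibroblast-like and tdTomato neg eGFP+). Named genes were the mitochondrial members, the isoform families, the 5 nuclear members with the largest and the 5 with the smallest ratio in a comparison, and at most 3 from each end of a pathway list (assembly, mitochondrial DNA expression, biogenesis, carriers, citric acid cycle, stress, glycolysis). Where a symbol had 2 entries both were counted. *Malat1*, *Neat1* and ribosomal genes were followed beside them. Within-library ratios needed 50 cells in both groups. With 1 library per population no test was run. The calls and the intervals of log2 ratios were checked on simulated Poisson counts per gene, which hold no spread between cells or libraries. Intervals of levels and shares were not checked by themselves. Depth ran from 10071954 to 90259852 UMIs per library.

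Alternatives were other mitochondrial limits, means over cells or libraries, depth ranges, 40 components, Scrublet doublets removed, cells of 1 sex mark, another denominator, threshold or minimum, and each library left out. Chosen after seeing the data were taking out the cells with the highest Scrublet scores up to the doublet rate expected (334, 225, 8 and 1104 cells), *Krt14* *Slurp1* cells counted as mesothelial-like, the eGFP neg libraries alone, cells with at least 0.3% mitochondrial UMIs and cells with 1000 to 3000 UMIs. Promoters are from RefSeq (GRCm38.p6), another build than that of the counts, and were matched by symbol.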

Additional observations from a re-analysis of the deposited data

Results flagged for a closer look

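The mitochondrial sum of tdTomato neg eGFP+ over double-negative cells went 1 way in melanoma-like cells and the other way in the other classes that both libraries could enter. The log2 ratio was 0.60 in melanoma-like cells. It was -1.21 in non-cycling and -0.92 in cycling mesothelial-like cells, -0.81 in the *Col6a6* *Thsd4* cluster and -0.89 in *Serpinb2* *Ereg* cells. Non-cycling and cycling matrix fibroblast-like cells had -1.43 and -1.35, the *Inmt* *Apod* cluster -0.71 and immune-like cells -1.24. Each value compares 1 library with 1 library, and the difference between classes was not tested.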

How the results depend on the processing

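Of 120 recomputed summed log2 ratios in the 4 planned comparisons, 117 kept their direction and 107 their side of the threshold. The comparisons are named lineage (mesothelial-like over matrix fibroblast-like), cycling (cycling over non-cycling mesothelial-like), *Inmt* (*Inmt* *Apod* cluster over matrix fibroblast-like) and tdTomato (tdTomato+ eGFP neg over double-negative non-cycling mesothelial-like cells). Values beyond counting error or, for counts, beyond 1.5 times the first are given by setting, and the cause was not tested.

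A mitochondrial limit of 5% gave mitochondrial log2 ratios of -0.21, 0.28, 0.46 and 0.11 (lineage, cycling, *Inmt* and tdTomato), and 1 higher mitochondrial member (tdTomato). No mitochondrial limit gave mitochondrial log2 ratios of -0.21, 0.17 and 0.74 (lineage, cycling and *Inmt*). Means over cells gave nuclear log2 ratios of -0.18 and -0.35 (cycling and tdTomato), and mitochondrial log2 ratios of -0.13, 0.16, 0.56 and 0.33 (lineage, cycling, *Inmt* and tdTomato). Libraries weighted equally gave nuclear log2 ratios of 0.19, -0.17 and -0.28 (lineage, cycling and *Inmt*), mitochondrial log2 ratios of 0.10, 0.15 and 0.76 (lineage, cycling and *Inmt*), 3 higher mitochondrial members (cycling), and 1 lower mitochondrial member (lineage). Cells with 4000 to 12000 UMIs gave nuclear log2 ratios of 0.12, -0.09 and -0.56 (lineage, cycling and *Inmt*), mitochondrial log2 ratios of -0.30, 0.33, 0.79 and 0.02 (lineage, cycling, *Inmt* and tdTomato), 1 and 2 higher nuclear members (cycling and *Inmt*), 7 lower nuclear members (cycling), and 1 higher mitochondrial member (tdTomato). Clustering with 40 components gave a nuclear log2 ratio of -0.26 (*Inmt*), and mitochondrial log2 ratios of -0.21, 0.17, 0.55 and 0.19 (lineage, cycling, *Inmt* and tdTomato). Cells with *Xist* alone gave nuclear log2 ratios of 0.03, -0.23 and -0.35 (lineage, cycling and *Inmt*), mitochondrial log2 ratios of -0.12, 0.16 and 0.37 (lineage, cycling and *Inmt*), 1 and 3 higher nuclear members (cycling and *Inmt*), 2 lower nuclear members (lineage), and 1 lower mitochondrial member (cycling). Cells with Y-linked UMIs alone gave nuclear log2 ratios of 0.13, -0.16 and -0.34 (lineage, cycling and tdTomato), mitochondrial log2 ratios of -0.15, 0.02 and 0.56 (lineage, cycling and tdTomato), 5 higher nuclear members (tdTomato), 2 lower nuclear members (lineage), 0 higher mitochondrial members (cycling), and 4 and 0 lower mitochondrial members (lineage and tdTomato). Totals without mitochondrial and ribosomal UMIs gave nuclear log2 ratios of 0.12, -0.20, -0.18 and -0.37 (lineage, cycling, *Inmt* and tdTomato), mitochondrial log2 ratios of -0.18, 0.20, 0.67 and 0.16 (lineage, cycling, *Inmt* and tdTomato), and 8 and 0 higher nuclear members (*Inmt* and tdTomato). A threshold of 0.5 gave 2, 1 and 0 higher nuclear members (lineage, *Inmt* and tdTomato), 3, 13 and 12 lower nuclear members (cycling, *Inmt* and tdTomato), 0 and 0 higher mitochondrial members (cycling and tdTomato), and 2 lower mitochondrial members (lineage). Without the CPM minimum the result was 1 higher nuclear member (cycling). Removal of the expected share of doublets, added after the data had been seen like the settings that follow, gave nuclear log2 ratios of 0.11 and -0.26 (lineage and *Inmt*). *Krt14* *Slurp1* cells counted as mesothelial-like gave a mitochondrial log2 ratio of -0.19 (lineage). The 2 eGFP neg libraries alone gave nuclear log2 ratios of 0.08, -0.20 and -0.29 (lineage, cycling and *Inmt*), mitochondrial log2 ratios of 0.04, 0.15 and 0.49 (lineage, cycling and *Inmt*), and 2 lower mitochondrial members (lineage). Cells with at least 0.3% mitochondrial UMIs gave nuclear log2 ratios of 0.08, -0.21, -0.26 and -0.30 (lineage, cycling, *Inmt* and tdTomato), and 1 higher nuclear member (cycling). Cells with 1000 to 3000 UMIs gave a nuclear log2 ratio of -0.51 (*Inmt*), and a mitochondrial log2 ratio of 0.56 (*Inmt*).

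Leaving out 1 library at a time gave 0.08 to 0.26 for the nuclear ratio (lineage), -0.33 to 0.01 for the mitochondrial ratio (lineage), 12 to 39 higher nuclear members (lineage), 2 to 10 lower mitochondrial members (lineage), -0.21 to -0.15 for the nuclear ratio (cycling). Further ranges were 0.12 to 0.47 for the mitochondrial ratio (cycling), 1 to 11 higher mitochondrial members (cycling), -0.31 to -0.19 for the nuclear ratio (*Inmt*), 0.52 to 0.64 for the mitochondrial ratio (*Inmt*) and 31 to 47 lower nuclear members (*Inmt*). Of 2581 recomputed values of named genes 106 had the opposite sign, 15 of them for genes beyond the threshold at first, which follow. With libraries weighted equally *mt-Co1*, *mt-Nd3* and *mt-Nd4* were at 0.06, 0.01 and 0.00 in the lineage comparison, and *mt-Atp8* at 0.45 in *Serpinb2* *Ereg* over matrix fibroblast-like cells. In cells with *Xist* alone *Ndufa4l2* was at 0.10 in the cycling comparison and *Sdha* at -0.12 in tdTomato neg eGFP+ over double-negative cells. At 4000 to 12000 UMIs *Ndufs7* was at -0.34 in the *Inmt* comparison and *Sdhc* at -0.15 in melanoma-like cells over CAF. Without the double-negative library signs turned in the *Inmt* comparison for *Sdha*, *Ndufs7* and *mt-Atp8*, which ran from -0.06 to 0.36, -0.14 to 0.37 and -0.50 to 0.92 as libraries were left out, and in *Serpinb2* *Ereg* over matrix fibroblast-like cells for *Ndufa3*, *mt-Atp8* and *mt-Nd4l*, which ran from -0.71 to 0.01, -0.71 to 0.69 and -1.22 to 0.06. There *mt-Co3* was at -0.06 without the tdTomato+ eGFP neg library. With fewer than 50 cells left, *Xist* alone gave no value for the tdTomato comparison or for melanoma-like cells, and Y-linked UMIs alone none for the *Inmt* comparison or for melanoma-like cells.

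In the 4 comparisons added after the data had been seen, the values over all alternatives and left-out libraries follow, with counts that changed by 1.5 times or more. Melanoma-like cells over CAF had nuclear ratios of 1.31 to 1.47 and mitochondrial ratios of 1.05 to 1.98. There lower nuclear members were 3 at 4000 to 12000 UMIs, 3 without mitochondrial and ribosomal UMIs and 3 without the CPM minimum in place of 2. *Serpinb2* *Ereg* over matrix fibroblast-like cells had nuclear ratios of -0.41 to -0.05 and mitochondrial ratios of -0.31 to 0.33. There higher nuclear members were 2 with Y-linked UMIs alone, 2 with libraries weighted equally and 3 without the CPM minimum in place of 1, and lower nuclear members were 21 with libraries weighted equally and 13 at a threshold of 0.5 in place of 44, and higher mitochondrial members were 6 as means over cells, 0 with Y-linked UMIs alone, 6 with libraries weighted equally, 3 in the eGFP neg libraries and 0 at a threshold of 0.5 in place of 1, and lower mitochondrial members were 1 as means over cells, 5 with Y-linked UMIs alone, 0 with libraries weighted equally, 1 in the eGFP neg libraries and 1 at a threshold of 0.5 in place of 2. Cycling over non-cycling matrix fibroblast-like cells had nuclear ratios of 0.05 to 0.21 and mitochondrial ratios of -0.59 to -0.24. There higher nuclear members were 29 at 4000 to 12000 UMIs and 0 at a threshold of 0.5 in place of 6, and lower nuclear members were 2 as means over cells, 2 at 4000 to 12000 UMIs, 2 with *Xist* alone, 2 with Y-linked UMIs alone, 2 with libraries weighted equally, 2 with expected doublets removed, 0 at a threshold of 0.5 and 2 without the CPM minimum in place of 1, and higher mitochondrial members were 1 with *Xist* alone in place of 0, and lower mitochondrial members were 12 at 4000 to 12000 UMIs and 0 at a threshold of 0.5 in place of 8. The comparison of tdTomato neg eGFP+ with double-negative cells had nuclear ratios of -0.19 to -0.11 and mitochondrial ratios of -1.37 to -0.94. There higher nuclear members were 3 with Y-linked UMIs alone, 2 without mitochondrial and ribosomal UMIs and 0 at a threshold of 0.5 in place of 5, and lower nuclear members were 29 at 0.3% or more mitochondrial UMIs and 1 at a threshold of 0.5 in place of 15.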

Other observations

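In melanoma-like cells over CAF, most genes tested around the respiratory chain were higher too, where 38.5% of all genes were higher and 42.1% lower. Higher were 12 of 13 complex I assembly factors tested, 19 of 22 assembly factors of complexes III, IV and V, 10 of 11 carriers, 12 of 13 citric acid cycle genes, 8 of 9 mitochondrial stress entries, 6 of 10 genes of mitochondrial DNA expression and 14 of 17 entries of glycolysis and its switch. The coactivator of mitochondrial biogenesis *Ppargc1a* (308 against 0.471 CPM, 9.35) stood out, while 5 of 9 regulators of biogenesis were lower, among them *Myc* (12.5 against 37.4 CPM, -1.59). Cytochrome c, *Cycs* (1689 against 228 CPM, 2.89), the ADP/ATP carrier *Slc25a4* (2328 against 567 CPM, 2.04) and the chaperonin genes *Hspd1* (1426 against 319 CPM, 2.16) and *Hspe1* (2230.0 against 562 CPM, 1.99) had large ratios. The mitochondrial ribosomal genes summed to a ratio of 0.81 and the cytosolic ones to 0.26.

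The list of glycolysis and its switch, which also holds *Pdk1*, *Bnip3* and *Higd1a*, differed between CAF classes. The *Serpinb2* *Ereg* class was named with hypoxia markers, which were not held out of clustering. In *Serpinb2* *Ereg* over matrix fibroblast-like cells 16 of 17 entries were higher (21.4% of all genes were), with *Bnip3* (211 against 50.5 CPM, 2.06), a mitophagy receptor, and the glucose transporter *Slc2a1* (159 against 53.0 CPM, 1.58) highest, beside 8 of 10 complex I assembly factors lower (34.0% of all genes). In the *Inmt* *Apod* cluster 13 of 17 were lower (29.5% of all genes were), with *Pfkl* (7.03 against 35.7 CPM, -2.35), *Eno1* (43.9 against 149 CPM, -1.76) and *Pkm* (157 against 481 CPM, -1.61) at the end, while *Pfkp* (76.3 against 46.3 CPM, 0.72) was higher, as were *Surf1* (42.7 against 24.1 CPM, 0.83), a complex IV assembly factor, and the stress factor *Atf5* (167 against 74.5 CPM, 1.17). In mesothelial-like over matrix fibroblast-like cells 13 of 17 were higher, with 32.3% of all genes. The summed ratios of this whole list were 0.87, -1.12 and 0.65 in these 3 comparisons. Mitochondrial ribosomal genes summed to -0.30, -0.25 and 0.19, and cytosolic ones to 0.02, 0.33 and 0.18. These counts and sums are pooled over libraries. In *Serpinb2* *Ereg* over matrix fibroblast-like cells the nuclear members called lower went from 44 to 14 without the double-negative library.

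For the other lists, counts called higher and lower follow, each with the shares of all genes called so. Mesothelial-like over matrix fibroblast-like cells (32.3% and 28.8%) had 1 and 0 of 10 for complex I assembly, 5 and 2 of 20 for assembly of complexes III, IV and V, 3 and 0 of 7 for mitochondrial DNA expression, 0 and 2 of 7 for regulators of biogenesis, 6 and 1 of 11 for carriers, 7 and 0 of 13 for the citric acid cycle and 4 and 1 of 8 for mitochondrial stress. The *Inmt* *Apod* cluster (40.4% and 29.5%) had 5 and 1 of 10 for complex I assembly, 7 and 5 of 22 for assembly of complexes III, IV and V, 4 and 2 of 8 for mitochondrial DNA expression, 3 and 1 of 8 for regulators of biogenesis, 0 and 6 of 11 for carriers, 2 and 5 of 13 for the citric acid cycle and 4 and 2 of 8 for mitochondrial stress. *Serpinb2* *Ereg* cells (21.4% and 34.0%) had 1 and 7 of 18 for assembly of complexes III, IV and V, 1 and 4 of 8 for mitochondrial DNA expression, 2 and 1 of 8 for regulators of biogenesis, 2 and 7 of 11 for carriers, 1 and 2 of 13 for the citric acid cycle and 3 and 2 of 8 for mitochondrial stress. Cycling over non-cycling mesothelial-like cells (43.3% and 17.9%) had 2 and 3 of 10 for complex I assembly, 4 and 6 of 20 for assembly of complexes III, IV and V, 3 and 0 of 7 for mitochondrial DNA expression, 6 and 1 of 8 for regulators of biogenesis, 0 and 1 of 11 for carriers, 2 and 1 of 13 for the citric acid cycle, 4 and 2 of 8 for mitochondrial stress and 3 and 3 of 17 for glycolysis. Cycling over non-cycling matrix fibroblast-like cells (19.7% and 20.8%) had 2 and 0 of 10 for complex I assembly, 4 and 4 of 19 for assembly of complexes III, IV and V, 3 and 1 of 7 for mitochondrial DNA expression, 3 and 2 of 7 for regulators of biogenesis, 4 and 0 of 11 for carriers, 4 and 1 of 13 for the citric acid cycle, 1 and 2 of 8 for mitochondrial stress and 5 and 2 of 17 for glycolysis. In non-cycling mesothelial-like cells, tdTomato+ eGFP neg over double-negative (30.9% and 22.7%) had 1 and 6 of 11 for complex I assembly, 1 and 7 of 19 for assembly of complexes III, IV and V, 1 and 2 of 6 for mitochondrial DNA expression, 2 and 0 of 6 for regulators of biogenesis, 1 and 3 of 11 for carriers, 2 and 1 of 13 for the citric acid cycle, 0 and 3 of 8 for mitochondrial stress and 2 and 4 of 17 for glycolysis, and tdTomato neg eGFP+ over double-negative (23.2% and 9.30%) 0 and 3 of 10 for complex I assembly, 2 and 3 of 20 for assembly of complexes III, IV and V, 0 and 1 of 6 for mitochondrial DNA expression, 4 and 0 of 6 for regulators of biogenesis, 0 and 1 of 11 for carriers, 3 and 0 of 13 for the citric acid cycle, 3 and 1 of 8 for mitochondrial stress and 2 and 2 of 17 for glycolysis.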
